A study of Mus musculus with 8 samples.

Results

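The 258 regions described here carried a peak in every APOBEC2 library collected at 34 h of differentiation and in none collected at 14 h. They were selected on the presence of called peaks: peaks of 6 libraries on chromosomes 1 to 19, X and Y that shared 1 bp or more were joined into 5567 regions, and the 258 are 4.63% of them. Because peaks chose the regions, their peak values at 34 h and the lack of a peak at 14 h are given as a description and were not tested.

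The cells were C2C12, a line of mouse myoblasts that stops dividing and fuses into myotubes when growth serum is withdrawn. In all samples differentiation had been started by a change to medium with 2% horse serum, and chromatin was collected 14 or 34 h later per the sample titles. The growth protocol gives the earlier harvest as 24 h, so the earlier time is uncertain. Each time had 3 immunoprecipitated (IP) libraries, made with polyclonal rabbit antibodies to APOBEC2, and 1 input library of unselected chromatin, all from the 1 cell line, with no genetic change named. The labels do not say whether replicates came from separate cultures, and no control-antibody or APOBEC2-deficient library was analysed here. Peak lists hold no RNA level, so the muscle identity of the cells could not be checked against marker genes.

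APOBEC2, a relative of the cytidine deaminases AID and APOBEC1, is found mainly in skeletal and heart muscle. ChIP-seq recovers DNA crosslinked to a protein and calls a peak where fragments pile up over their surroundings. Promoters of widely expressed genes are often rich in CpG and carry short elements near the start of transcription. Among these are the GC box, read by SP and KLF factors, and the CCAAT box, read by NF-Y.

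The 8 promoters below belong to the highest-ranked members, by the lowest fold over the 3 libraries, that overlapped a promoter, and are shown because they carry the elements counted further on. Sequences are from RefSeq on GRCm38.p6, run 5′ to 3′ on the gene's strand and cover 250 bases before to 50 after the annotated start. Capitals mark each GC box (GGGCGG or its complement CCGCCC) and each CCAAT box (CCAAT or its complement ATTGG). A mark shows matching letters alone. The GC box of H2bc6 and some of those of Oip5os1, Lrig2 and Ankrd54 lie after the start. Zfyve1 lies at chr12:83597173-83597472, minus strand. Oip5os1 lies at chr2:119594046-119594345, plus strand. Evi5l lies at chr8:4166317-4166616, plus strand. H3f3b lies at chr11:116024455-116024754, minus strand. Lrig2 lies at chr3:104511869-104512168, minus strand. H2bc6 lies at chr13:23585921-23586220, minus strand. Psmb3 lies at chr11:97703184-97703483, plus strand. Ankrd54 lies at chr15:79062869-79063168, minus strand.
Zfyve1: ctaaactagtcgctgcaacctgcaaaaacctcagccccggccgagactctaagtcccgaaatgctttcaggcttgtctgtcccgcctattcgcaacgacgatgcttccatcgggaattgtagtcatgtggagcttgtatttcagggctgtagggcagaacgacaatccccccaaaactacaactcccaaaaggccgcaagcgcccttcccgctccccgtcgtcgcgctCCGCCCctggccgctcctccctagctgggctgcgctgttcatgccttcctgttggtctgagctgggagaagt
Oip5os1: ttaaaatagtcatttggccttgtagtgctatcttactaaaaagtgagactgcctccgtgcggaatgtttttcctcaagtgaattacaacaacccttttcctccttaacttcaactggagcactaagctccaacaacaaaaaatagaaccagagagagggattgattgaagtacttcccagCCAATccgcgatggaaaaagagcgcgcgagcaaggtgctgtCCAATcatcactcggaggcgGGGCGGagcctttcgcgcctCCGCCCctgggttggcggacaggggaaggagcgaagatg
Evi5l: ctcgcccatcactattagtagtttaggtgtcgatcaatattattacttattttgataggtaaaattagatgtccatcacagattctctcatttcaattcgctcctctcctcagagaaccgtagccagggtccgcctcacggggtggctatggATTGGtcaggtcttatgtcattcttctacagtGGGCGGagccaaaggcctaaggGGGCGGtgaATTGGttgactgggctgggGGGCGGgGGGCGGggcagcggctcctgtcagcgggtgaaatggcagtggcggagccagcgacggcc
H3f3b: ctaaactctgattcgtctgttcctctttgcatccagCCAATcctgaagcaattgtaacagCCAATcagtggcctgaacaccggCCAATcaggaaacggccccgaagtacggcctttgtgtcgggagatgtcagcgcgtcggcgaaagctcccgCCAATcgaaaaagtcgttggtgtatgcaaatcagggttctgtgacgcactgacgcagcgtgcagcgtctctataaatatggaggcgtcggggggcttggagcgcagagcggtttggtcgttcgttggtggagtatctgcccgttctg
Lrig2: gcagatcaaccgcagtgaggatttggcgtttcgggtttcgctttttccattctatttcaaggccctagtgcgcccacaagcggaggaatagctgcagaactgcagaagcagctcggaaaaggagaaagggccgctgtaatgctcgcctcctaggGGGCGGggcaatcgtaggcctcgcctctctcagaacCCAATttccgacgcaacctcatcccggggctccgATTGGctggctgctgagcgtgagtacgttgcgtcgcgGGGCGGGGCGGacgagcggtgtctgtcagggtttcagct
H2bc6: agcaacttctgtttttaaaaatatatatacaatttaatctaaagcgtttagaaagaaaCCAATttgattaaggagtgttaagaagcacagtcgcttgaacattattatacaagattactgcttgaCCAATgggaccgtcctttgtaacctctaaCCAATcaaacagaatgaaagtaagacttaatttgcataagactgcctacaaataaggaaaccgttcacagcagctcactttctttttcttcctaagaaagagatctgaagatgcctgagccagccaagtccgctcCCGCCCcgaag
Psmb3: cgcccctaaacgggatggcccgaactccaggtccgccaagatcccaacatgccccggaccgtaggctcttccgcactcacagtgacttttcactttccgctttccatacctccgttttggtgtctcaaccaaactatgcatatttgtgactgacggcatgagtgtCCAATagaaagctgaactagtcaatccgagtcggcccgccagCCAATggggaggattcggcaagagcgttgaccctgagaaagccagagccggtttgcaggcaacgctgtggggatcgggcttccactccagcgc
Ankrd54: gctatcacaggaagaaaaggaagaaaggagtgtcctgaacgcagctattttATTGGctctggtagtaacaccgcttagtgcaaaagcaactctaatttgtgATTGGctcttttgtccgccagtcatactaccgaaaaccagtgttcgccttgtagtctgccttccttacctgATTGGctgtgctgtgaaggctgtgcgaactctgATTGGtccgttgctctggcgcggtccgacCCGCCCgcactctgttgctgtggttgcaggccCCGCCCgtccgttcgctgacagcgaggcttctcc
H3f3b and Ankrd54 hold 4 CCAAT boxes each and H2bc6 holds 3. Oip5os1, Evi5l, Lrig2 and Psmb3 hold 2 each, and Zfyve1 holds 0 CCAAT boxes and 1 GC box. Evi5l has 4 GC boxes, Lrig2 has 3, Oip5os1 and Ankrd54 have 2 and H2bc6 has 1, whereas H3f3b and Psmb3 have 0. The member at Evi5l covers only the first 82 bases printed, which hold no marked box, so the boxes of Evi5l lie outside the member. The strongest summit lay before the start in all 8, at 13 bp for Oip5os1, 20 bp for H2bc6, 119 bp for H3f3b, 143 bp for Zfyve1, 167 bp for Psmb3, 173 bp for Ankrd54, 215 bp for Lrig2 and 513 bp for Evi5l.

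The member peaks were of modest height. A fold is the authors' ratio of the IP signal at a summit to its local background. Over the 258 regions its median was 6.21 in replicate 1, 7.50 in replicate 2 and 5.64 in replicate 3 (mean of the 3 medians 6.45 ± 0.951, SD, n = 3 libraries). The 428 regions with a peak in all 6 libraries had higher medians in each library, at 9.62, 12.3 and 7.57. Another 916 regions had no 14 h peak and a peak in 2 libraries of 34 h, with medians of 5.56, 6.16 and 5.60. The mean fold of a member ranged from 1.88 to 10.7, and 167 members had a fold of at least 5 in all 3 libraries.

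**Figure D1:**
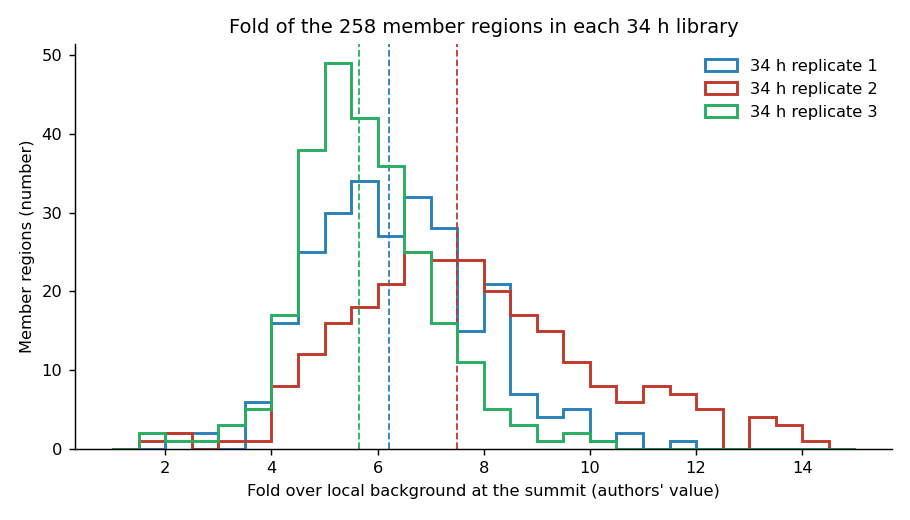
Number of member regions (vertical axis) by fold over local background (horizontal axis, linear) in each of the 3 libraries of 34 h; dashed lines are the medians of 6.21, 7.50 and 5.64. Replicate 2 reaches farther to the right, up to 14.2, than replicate 3, which ends at 10.2.

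Replicate 2 stood highest at most members. It gave the highest fold in 178 members and replicate 3 the lowest in 149. Over the members, folds correlated with r = 0.579 between replicates 1 and 2, r = 0.446 between 1 and 3 and r = 0.480 between 2 and 3. These points share a library's depth and a peak-calling threshold, so the values are descriptive. The fragments at a summit were solved from the deposited fold and p-value. The fold was taken as fragments plus 1 over background plus 1, so it is lower than the plain ratio of the 2. The fragments had medians of 19, 27 and 18 in replicates 1, 2 and 3, and the lowest were 11, 12 and 11. The local background had medians of 2.11, 2.63 and 2.32 fragments.

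The lists differ in length and in where they stop. They held 765, 1320 and 794 peaks at 14 h and 2202, 5019 and 1052 at 34 h, and the members made up 11.7%, 5.14% and 24.5% of the 34 h lists. The lowest −log10 p in a 14 h list was at most 7.08, and 252 members (97.7%) exceeded that value in all 3 libraries of 34 h. The 34 h lists themselves stopped at 5.01, 5.18 and 6.44. Values at 34 h chose the members, so this count says nothing of the signal at 14 h. A site without a 14 h peak may still hold fragments below the threshold, and the part of depth in the difference was not tested. Replicate 3 of 34 h, with the shortest of the 34 h lists, set the number of members: 808 of the 916 regions with 2 libraries lacked it, and without it 1066 regions met the rule.

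The highest-ranked member was at the start of Zfyve1, which encodes DFCP1, a protein of the membrane sites where autophagosomes form. Its folds were 8.36, 9.28 and 9.69 in replicates 1, 2 and 3 (9.11 ± 0.682, SD, n = 3), on 24, 28 and 27 fragments. The region at the long noncoding RNA gene Oip5os1, also called Cyrano, had folds of 8.17, 12.1 and 8.24. At Evi5l, which encodes a Rab GTPase-activating protein, they were 8.08, 13.1 and 8.10. Replicates 1 and 3 were nearly equal at both and replicate 2 stood above them, whereas at Zfyve1 the 3 libraries lay close together. At H3f3b, one of the genes for the replication-independent histone H3.3, the folds were 8.97, 12.1 and 8.07. Inside Chd2, the gene of a chromatin remodeller, they were 8.20, 11.8 and 7.91. Hes1, the Notch-induced repressor, had folds of 8.15, 12.1 and 7.68 (chr16:30065081-30065391). Lrig2, a membrane protein that acts on growth factor receptors, had 10.6, 13.4 and 7.52. These 4 regions shared one order, with replicate 2 highest and replicate 3 lowest.

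Inside Maml3, a coactivator of Notch-dependent transcription, the folds were 8.03, 8.08 and 7.39 (7.83 ± 0.384, SD, n = 3), the closest agreement among the 10 highest-ranked members. At H2bc6, a gene of the replication-dependent histone H2B, they were 7.37, 8.47 and 8.49. H3f3b and H2bc6 lie more than 1 kb inside the annotated span of their genes, but at an annotated start. At Marcks, an actin-binding substrate of protein kinase C, the folds were 7.36, 10.9 and 9.34. Replicate 1 was the lowest of the 3 libraries at H2bc6 and Marcks.

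The other named members covered the proteasome subunit gene Psmb3 (7.69, 8.95 and 7.25 in replicates 1 to 3), Ankrd54 (8.33, 9.66 and 7.23) and Esyt1, which encodes a tether between endoplasmic reticulum and plasma membrane (7.20, 8.50 and 7.62). The kinase gene Eif2ak3, which encodes the stress sensor PERK, had 7.18, 11.0 and 7.38. Further chromatin regulators followed in the order of rank. Sin3a, the scaffold of a histone deacetylase complex, had 7.99, 7.68 and 7.12. Ing3, a subunit of the NuA4 acetyltransferase complex, had 9.97, 8.92 and 7.09. Atf7ip, a partner of the methyltransferase SETDB1, had 6.82, 8.36 and 7.52. A region inside Pex2, which encodes a peroxisome biogenesis factor, had 8.13, 8.05 and 7.10. Of the 25 regions named by this rank, 12 lay within 1 kb of a protein-coding gene boundary, 6 elsewhere inside such a gene and 7 outside. The 25th had a lowest fold of 6.75.

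**Figure D2:**
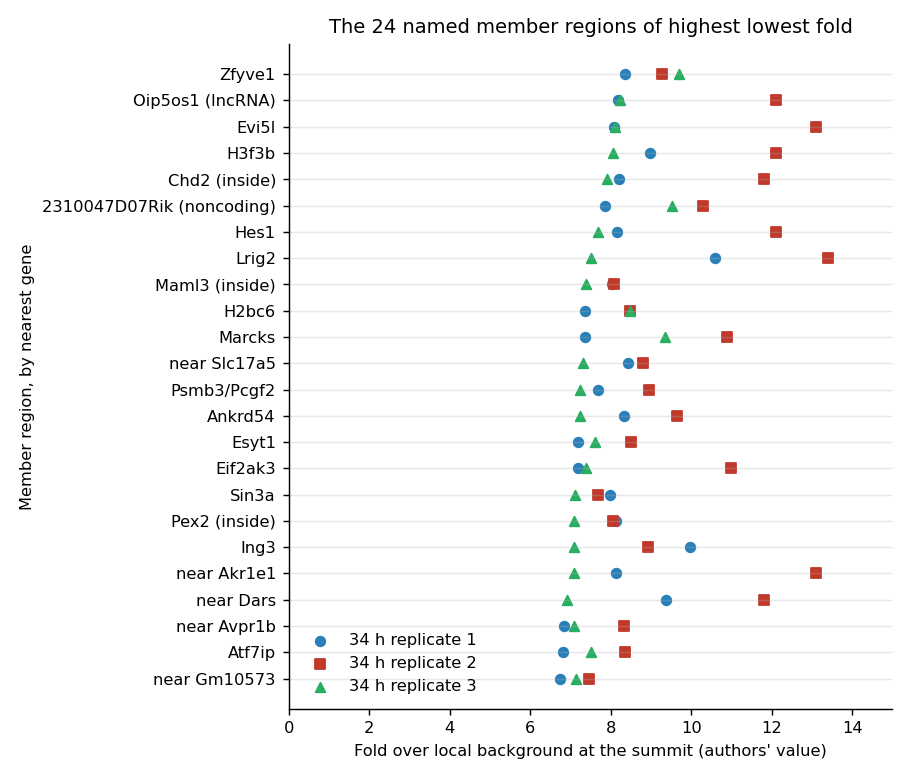
Fold over local background (horizontal axis, linear) of 24 of the 25 members with the highest lowest fold, by nearest gene (vertical axis); each symbol is 1 library of 34 h. Replicate 2 is the highest in 19 of the 24 regions and the lowest in 0.

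Few genes of any pathway list were at members. Over all protein-coding genes, 174 of 21887 (0.795%) had a boundary, start or end, within 1 kb of a member, and 230 (1.05%) had one there or a member inside. Of the 2169 protein-coding genes in 26 lists of pathways, complexes and cell types, 17 (0.784%) had a boundary at a member and 24 (1.11%) had one there or inside. Both pooled shares are near those of all genes, but 1110 of the 2169 are olfactory receptors, with 0 at or around a member. The shares over the remaining list genes are therefore higher than the pooled ones. Of the 26 lists with protein-coding genes, 16 had none at a boundary.

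The Notch list had the highest share, with 3 of 34 genes at a boundary (8.82%) and 4 of 34 with Maml3 inside (11.8%). Notch receptors release an intracellular fragment that joins RBPJ and a Mastermind coactivator on target genes such as Hes1. The target Hes1 and the coactivator gene Maml3 are described above. The coactivator gene Maml1 had folds of 7.32, 6.94 and 6.34. Numb, which encodes an inhibitor of Notch receptors, had 4.81, 6.99 and 5.47. Of the 34 Notch genes, 2 had a peak in any 14 h library. The list holds few genes, and its choice was made with earlier results known, so the share supports no statement on the pathway.

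Transcription factor genes formed a further small group. KLF and SP factors had 2 of 26 genes at a boundary (7.69%), Klf9 (5.81, 6.84 and 5.30) and Sp1 (9.33, 12.4 and 6.20), and Sp2 held a member at a start inside its span (4.58, 8.41 and 4.90). Among 30 myogenic factors and partners, Id2, which encodes an inhibitor of MyoD and other bHLH factors, had a member at its start (6.71, 8.45 and 7.36) and another lay 2.47 kb from the gene (6.75, 7.98 and 5.95). Tead1, whose product binds MCAT elements of muscle promoters, held a member inside (7.31, 9.56 and 5.27). No member was at a gene of the 65 muscle contraction and differentiation genes, of which 2 had a 14 h peak. The subunit gene Nfyb of NF-Y itself, chosen after its values were seen, had a member 127 bp after its start (7.80, 9.06 and 5.36).

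Chromatin modifiers and remodellers had 2 of 65 genes at a boundary (3.08%) and 4 with those inside. Chd7 had folds of 7.02, 7.12 and 5.24. The region shared by Kmt2d, a histone H3 lysine methyltransferase gene, and Prkag1 had 7.88, 5.77 and 6.05. Its summit lay 13 bp after the start of Prkag1, and no Kmt2d start of the promoter table was within 1 kb. The region inside Brd2, which encodes a bromodomain reader of acetylated histones, had 7.04, 10.7 and 6.05. RNA-processing genes had 3 of 59 at a boundary (5.08%), namely the splicing regulators Mbnl2 (5.78, 7.89 and 5.19), Rbm25 (8.35, 9.48 and 4.90) and Rbm39 (6.25, 11.6 and 6.52). The proteasome list had 2 of 42 (4.76%), Psmb3 and Psma1 (5.96, 7.22 and 5.83). Replicate 2 was the highest library at each of these genes except at the region of Kmt2d and Prkag1.

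Single genes of 4 further lists were at members. Gadd45a, a growth arrest gene induced by p53, had folds of 6.67, 11.5 and 6.72. Stk11, which encodes the kinase LKB1 upstream of AMPK, had 5.16, 4.87 and 4.98. Lars, which encodes leucyl-tRNA synthetase, had 6.32, 14.2 and 7.86. Zfyve1 was the only one of 40 autophagy and lysosome genes. Cell cycle genes (56), cytosolic ribosomal protein genes (76), translation factors (55), heat shock proteins and chaperones (50), immediate early genes (44), TGF-beta and BMP genes (43) and olfactory receptors (1110) had 0 genes at or around a member. Lists of haematopoietic (30), neural (30) and adipogenic, cartilage and bone genes (29), which mark other cell types, also had 0. Over all protein-coding genes 1.05% were at or around a member. A count of 0 in a list of 29 to 76 genes is therefore a common outcome and says little about a pathway or cell type. For the cell cycle list the rule itself bears on that count, since 44 of its 56 genes had a peak in a 14 h library.

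Members lay at gene boundaries, inside genes and outside them. Of the 258, 144 (55.8%, exact 95% binomial interval 49.5 to 62.0) were within 1 kb of a boundary of a protein-coding gene, 54 (20.9%) elsewhere inside one and 60 (23.3%) outside. A boundary is an end of the annotated span. Some members inside a gene therefore lay at another of its starts, as at H3f3b, Map4 and Hif1a. Some of those outside lay at the start of a noncoding gene, such as Oip5os1. Of the 134 regions with all 3 libraries of 34 h and 1 or 2 of 14 h, 70.9% were at a boundary (62.4 to 78.4), and of the 428 with all 6 libraries 86.0% were (82.3 to 89.1). The 916 regions of 2 libraries of 34 h without a 14 h peak had 51.2% there (47.9 to 54.5), close to the members. Intervals cover counting error only. The sets differed in fold, so the shares were set side by side within ranges of the mean fold at 34 h. Between 6 and 7, 56.6% of 83 members were at a boundary (45.3 to 67.5), compared with 84.8% of 33 regions with 1 or 2 libraries of 14 h (68.1 to 94.9) and 100% of 30 with all 6 (88.4 to 100). Between 7 and 8 the shares were 56.2%, 83.3% and 86.5%. At 8 and over they were 53.8%, 87.5% and 94.0%. That last range is open and does not match the sets in fold. Mean folds ended at 10.7 for members and at 32.3 for regions of all 6 libraries. Of these 3 sets, members had the lowest share in each of the 4 ranges from 5 upwards. Under 5 the order was turned, at 40.0%, 15.4% and 3.12%. The 916 regions of 2 libraries of 34 h were not divided by fold.

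**Figure D3:**
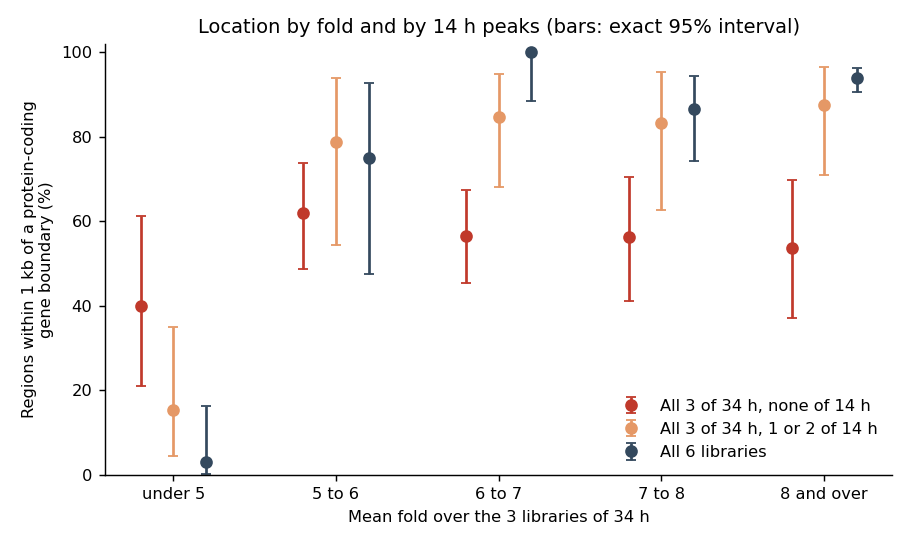
Share of regions within 1 kb of a protein-coding gene boundary (vertical axis, percent) in ranges of the mean fold over the 3 libraries of 34 h (horizontal axis), for 3 sets of regions; bars are exact 95% binomial intervals. Members stay between 53.8% and 61.9% in the 4 ranges from 5 upwards. A start deeper inside a gene's annotated span does not count as a boundary.

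Median heights and widths of members were close between these locations. Median folds in replicates 1, 2 and 3 were 6.17, 7.50 and 5.59 at boundaries, 6.54, 7.29 and 5.65 inside genes and 6.19, 7.73 and 5.79 outside. Median widths were 418, 371 and 398 bp. All 3 summits lay within 100 bp of each other in 171 members (66.3%).

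Where a member lay at a gene start, its summit was mostly before the start. RefSeq starts on chromosomes other than 18 were within 1 kb of 143 of 255 members (56.1%). In 141 the summit itself was within 1 kb, and in 113 of those (80.1%) it lay upstream; the median position of all 141 was −80 bp. In regions of all 6 libraries 62.2% of such summits were upstream and the median of all was −21 bp, and in regions with 1 or 2 libraries of 14 h 65.9%, with −67 bp. In regions of 2 libraries of 34 h without a 14 h peak 72.4% were upstream, with a median of −62 bp. Regions touching the boundaries of at least 2 genes were 12.4% of members, 10.9% of those with 2 libraries of 34 h without a 14 h peak and 23.6% of those in all 6 libraries.

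Promoters at members were rich in CpG and in CCAAT boxes. The 193 starts within 1 kb of a member belonged to 172 genes, so some share a region. The intervals over promoters count each start as separate and may therefore be too narrow. A CpG content above 0.6 of that expected from base composition was found in 88.6% of them, compared with 92.4% at regions of all 6 libraries and 35.8% of all 32851 starts. A CCAAT box was in 67.4% (60.3 to 73.9) of member promoters of 300 bases, in 56.9% at regions of all 6 libraries, in 53.8% at regions of 2 libraries of 34 h without a 14 h peak, and in 37.4% of all starts. Restricted to CpG-rich starts, the shares were 67.3% at members and 35.7% of 11756 starts. These groups were not matched in base composition, with a median GC of 59.7% at members and 64.3% over all CpG-rich starts. The part of this difference in the motif shares was not tested. The CCAAT interval at members lay above the share of all starts and of CpG-rich starts. It overlapped the interval at regions of all 6 libraries (52.3 to 61.5). At regions with all 3 libraries of 34 h and 1 or 2 of 14 h the share was 56.6% (47.3 to 65.5), whose interval also overlapped.

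The box was also close to the summit. Of 114 member summits inside a promoter, 60 (52.6%, 43.1 to 62.1) had a CCAAT box within 50 bp. That share was 48.5% at regions of all 6 libraries, 39.1% at those with 1 or 2 libraries of 14 h and 37.6% at those with 2 libraries of 34 h. Around the members' median summit place, 19.3% of all starts and 21.4% of CpG-rich starts had one. The interval at members overlapped that at regions of all 6 libraries (42.4 to 54.7).

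The CHR element of cell cycle promoters (TTTGAA), which the MuvB complex binds, had a share at members close to that of CpG-rich starts. It was in 9.33% of member promoters (5.62 to 14.3), in 11.6% at regions of 2 libraries of 34 h without a 14 h peak, in 29.4% at regions of all 6 libraries and in 9.82% of CpG-rich starts. Within 50 bp of the summit it was found at 2.63% of members (0.546 to 7.50), 5.01% of regions of 2 libraries of 34 h without a 14 h peak and 26.3% of regions of all 6 libraries (21.1 to 32.0). The E2F motif GGCGGGAA was in 7.25% at members, 3.98% at regions of 2 libraries of 34 h, 11.7% at those of all 6 and 4.77% of CpG-rich starts. In 7 member promoters its match shared bases with a GC box. The NRF1 motif GCGCNTGCG was in 8.81%, 9.65%, 18.2% and 16.0% of the same sets.

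Over whole promoters the GC box differed little between 3 sets, at 73.6% of member promoters, 72.1% at regions of all 6 libraries and 72.3% of CpG-rich starts. Of all starts 35.7% held it. Within 50 bp of the summit it was found at 38.6% of members (29.6 to 48.2) and 41.9% of regions of all 6 libraries. Around the members' median summit place, 48.2% of CpG-rich starts and 22.6% of all starts had one. The ETS motif CCGGAAG was in 18.1% of member promoters, in 25.3% at regions of all 6 libraries, in 18.7% of CpG-rich starts and in 8.86% of all starts. For the rest, the share of CpG-rich starts and then that of all starts stand in brackets. The myogenic E-box CAGCTG was in 12.4% (13.1% and 16.3%), the MYC, MAX and USF box CACGTG in 4.66% (11.3% and 7.15%), the AP-1 site TGAGTCA in 2.07% (2.47% and 5.20%) and the RBPJ motif GTGGGAA of the Notch pathway in 4.15% (5.30% and 6.38%). The TATA box TATAAA was in 4.66% (5.99% and 13.6%) and the heat shock motif GAANNTTC in 4.15% (5.17% and 7.86%). The CREB and ATF site TGACGTCA was in 2.07% (3.66% and 1.79%), and the motif CTCGCGAGA in 3.11% (1.76% and 0.676%). Among these 8 motifs, all but CACGTG had a share at CpG-rich starts inside the members' 95% intervals. Both strands were searched, a match is not a bound site, and exact letters were required.

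**Figure D4:**
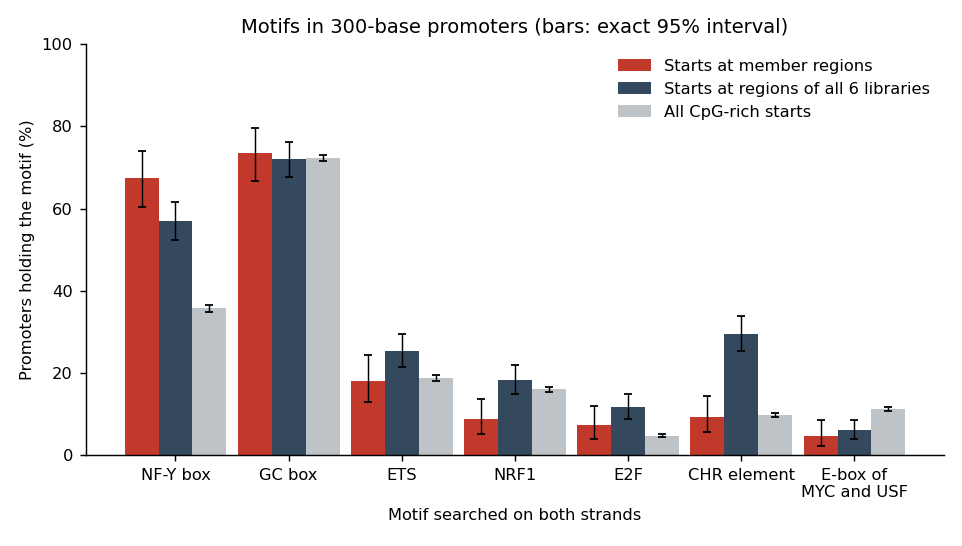
Share of 300-base promoters holding each of 7 motifs (vertical axis, percent) at starts within 1 kb of a member, at starts within 1 kb of a region of all 6 libraries and at all CpG-rich starts; bars are exact 95% binomial intervals. The NF-Y box stands at 67.4%, 56.9% and 35.7% and the CHR element at 9.33%, 29.4% and 9.82%.

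Of the 60 members outside protein-coding genes, 22 were at or inside a noncoding gene and 38 were at no annotated gene. The median distance to a protein-coding gene was 32.1 kb, and 19 were over 100 kb away. Noncoding hosts included Oip5os1, Neat1 (7.44, 6.88 and 4.85), the RNA scaffold of paraspeckles, and Mir22hg (5.41, 7.67 and 5.25), the host gene of miR-22. Neat1 was the only 1 of 30 listed noncoding genes at or around a member, and Mir22hg was chosen after its values were seen. The 7 of the 25 highest-ranked regions that lay outside protein-coding genes include chr13:4771258-4771750, 162 kb from Akr1e1, with folds of 8.13, 13.1 and 7.08. A region near Dars had 9.37, 11.8 and 6.92. Those near Slc17a5 (8.43, 8.80 and 7.31), Avpr1b (6.85, 8.32 and 7.10) and Gm10573 (6.75, 7.45 and 7.15) had folds closer to each other.

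Transfer RNA genes were overlapped by 4 members (1.55%). The sixth-ranked region of all (chr5:149228932-149229312) held the asparagine tRNA gene n-TNgtt14, with folds of 7.87, 10.3 and 9.53. The others held a serine tRNA gene near Ctnna3 (9.70, 7.04 and 5.60), a proline one (4.89, 5.23 and 5.76) and a leucine one at Polr3e, itself the gene of an RNA polymerase III subunit (3.53, 7.51 and 5.76). Among regions of all 3 libraries of 34 h and 1 or 2 of 14 h, 2 of 134 overlapped one (1.49%), a share close to that of members. Among regions of all 6 libraries 0 of 428 did, and among those with 2 libraries of 34 h and no 14 h peak 8 of 916 did (0.873%).

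A few members differed from the rest in their background. The lowest fold belonged to chr2:98664853-98665305, 1033 kb from the nearest protein-coding gene, with 2.04, 1.83 and 1.77. It stood on 237, 249 and 220 fragments over backgrounds of 115, 136 and 124, and a 14 h peak lay 842 bp away. Regions at chr9:3034224-3034460 (2.52, 2.44 and 2.28) and chr9:3021458-3021831 (2.43, 2.18 and 1.84) were 218 and 145 bp from 14 h peaks. In these 3 members the fold was under 3 in every library. In all, 8 members (3.10%) had a 14 h peak less than 1 kb away, among them those at Azin1, Rap2b and Ctnna3. The median distance of a member to the nearest 14 h peak was 364 kb.

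Members were unevenly spread over chromosomes. Chromosomes 10, 12, 15, 16 and 19, picked after the counts were seen, held 97 of the 258 (37.6%), compared with 20.1% of regions with 1 or 2 libraries of 14 h, 17.3% of those with all 6, 22.4% of those with 2 libraries of 34 h but none of 14 h and 17.5% of protein-coding genes. Chromosome 10 held 25 members and chromosome 15 held 23, whereas chromosomes 8 and 14 held 5 each. Of all peaks, these 5 chromosomes took 16.2%, 19.7% and 18.9% in the 14 h lists and 23.1%, 22.3% and 22.9% in the 34 h lists. On these chromosomes the members' median folds were 6.51, 7.33 and 5.47, and elsewhere 6.10, 7.65 and 5.74. Their share at a gene boundary was 57.7% there and 54.7% elsewhere. The share on the 5 chromosomes was 37.7% with lists of equal length, 29.9% when peaks had to overlap by 50% and 26.0% without 34 h replicate 3.

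**Figure D5:**
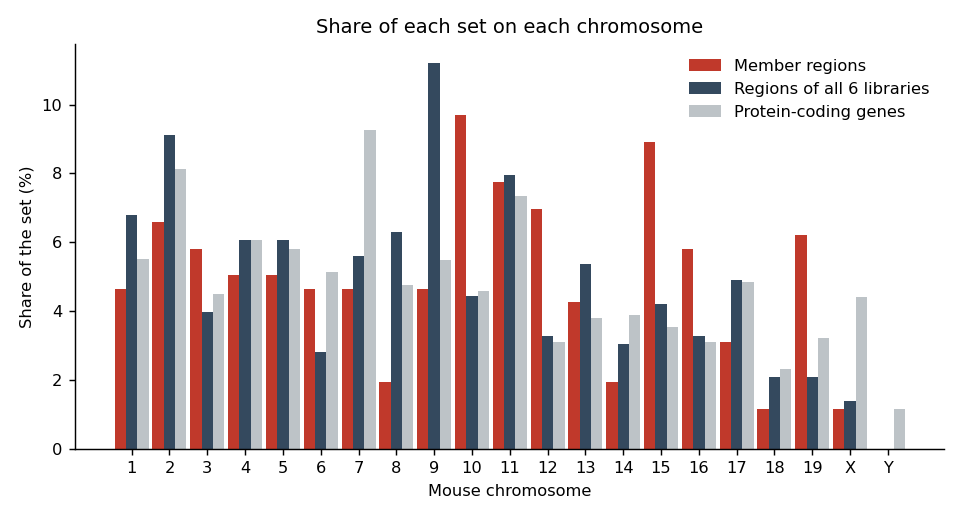
Share of each set (vertical axis, percent) on each mouse chromosome (horizontal axis), for members, regions of all 6 libraries and protein-coding genes. Members reach 9.69% on chromosome 10 and 8.91% on chromosome 15, where protein-coding genes have 4.57% and 3.55%.

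The edge of the set is set by the lists' thresholds. The 3 members of lowest −log10 q in any library were at Polr3e (2.03 in replicate 1), Rab5c (2.49 in replicate 3) and Hyls1 (2.60 in replicate 1). Just outside, with all 3 libraries of 34 h and 1 of 14 h, stood Lsm4 (−log10 q 3.03 at 14 h, folds at 34 h 7.07, 8.37 and 6.92), a region inside Chl1 (4.07) and Prmt5 (4.35, folds at 34 h 6.03, 10.6 and 5.04). The Chl1 region had lower folds at 34 h, 1.85, 1.67 and 1.68, over backgrounds of 127, 142 and 137 fragments. With 2 libraries of 34 h and none of 14 h, the highest were a region 5.31 kb from Cd209a (14.8 and 16.1 in replicates 2 and 3), one inside Slc9a4 (9.66 and 10.4 in replicates 1 and 2) and Zbtb5 (9.61 and 13.1 in replicates 1 and 2). Each of the last 3 exceeded 8.36, the highest lowest fold of any member, in both libraries that had it.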

How the data were processed

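Chromatin of C2C12 cells was immunoprecipitated with an APOBEC2 antibody in 6 libraries, with 1 input for each of the 2 times. Reads were aligned with Subread to mm10 and peaks were called with MACS2, per the submitters' processing notes. Tool versions and the calling cutoff were not given in the sources used here. The authors called peaks separately in each IP library, per the deposited lists. The fold the authors deposited is a linear ratio of IP to local background at the summit, taken here as having 1 added to both. Significance was deposited by the authors as −log10 p-values and −log10 q-values, with an integer score that was not used in any result. Deposited summit positions equalled those of the peak lists.

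Peaks were merged at 1 bp of overlap, leaving out 42 peaks on chromosome M, and each library's highest peak in a region gave its values. Fragments and background were solved from fold and p-value, to within 0.001 on the −log10 p scale for 100% of peaks; the solver and the merging were tested on simulated data. Total depth is unknown, and the fragments at a summit limit the precision of each fold. Genes and sequences came from RefSeq tables on GRCm38.p6 without exons; the gene table gives no strand, and the promoter table has entries for 17492 of 21887 protein-coding genes (79.9%) and none on chromosome 18. Of 2218 list members asked for, 2217 matched. The Y chromosome held no member.

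The text names the 25 members of highest lowest fold over the 3 libraries of 34 h, list genes at or inside members, and 3 regions of each kind at the edge of the set; others are said to be chosen after their values were seen. Of the 25, 1 is not reported here. The member regions and gene lists were chosen with earlier results of these data known. Comparison with CpG-rich and protein-coding starts was added after the data were seen. No test was run, because peaks chose the regions. Alternatives changed the significance limit, list length, overlap, windows, libraries and promoters counted. Python 3.11.15, pandas 2.3.3 and scipy 1.17.1 were used.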

Additional observations from a re-analysis of the deposited data

How the results depend on the processing

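Of 68 alternative values, 52 stayed within 1.5 times the reported count, the interval of the share or 1 SD of the library medians. With lists of equal length (765 peaks), 53 regions met the rule, 47.2% at a gene boundary, with a median fold of 8.26 and 6 list genes. With 50% reciprocal overlap there were 107 regions, 47.7% at a boundary, and 8 list genes. A 5 kb window gave 63.2% at a boundary and 26 list genes. The median fold was 5.27 from the lowest and 7.72 from the highest library of each region. The CCAAT share was 74.4% in promoters overlapping a member and 42.5% on the gene's strand alone. Leaving out each library in turn gave 260 to 1066 regions, 51.5% to 59.3% at a boundary, a median fold of 6.00 to 6.49, 18 to 65 list genes and a CCAAT share of 56.9% to 67.9%; the extremes of 1066 regions, 65 genes and 56.9% came without 34 h replicate 3. Further alternatives were chosen after seeing the data: without the 10 members of a background over 10 fragments, 248 remained with 58.1% at a boundary, and protein-coding starts alone had a CCAAT share of 71.6%. No paired analysis was possible because the results come from no test. Small summit counts limit each fold, and a region without a 14 h peak is not shown to be unbound.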

Other observations

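Further groups of member genes were picked after their values were seen, from no fixed list, and are given as single genes with their values. Genes of protein folding and quality control in the endoplasmic reticulum with a member at the start, besides Eif2ak3, were Sel1l (6.51, 8.29 and 6.58 in replicates 1, 2 and 3), a cofactor of the ubiquitin ligase that retires misfolded proteins, and the lectin gene Os9 (7.43, 7.45 and 4.90) of the same pathway. The disulfide isomerase gene Pdia6 had 5.98, 5.68 and 5.12, and Stt3a, the catalytic subunit of oligosaccharyltransferase, had 5.05, 11.0 and 7.58. Stt3a and Eif2ak3 stood out by replicate 2, whereas Pdia6 was nearly level over the libraries.

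Subunits of Mediator, the bridge between transcription factors and RNA polymerase II, with a member at the start were Med6 (6.17, 6.93 and 5.47), Med7 (4.81, 4.89 and 5.06) and Ccnc (6.32, 5.92 and 6.04). Of genes of mitochondrial protein import, Tomm40 (5.43, 9.47 and 5.60) and Timm13 (4.56, 4.53 and 4.79) had one. Gas1, a gene induced in growth arrest, had a member at its start (6.63, 7.65 and 5.55). The clock gene Per1 (8.78, 11.9 and 4.32) showed a wide spread, with replicate 3 low. Hif1a, the oxygen-regulated factor, had 5.65, 4.29 and 4.61 at a start.

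A few genes linked to muscle, from outside the fixed muscle list, held members with no start of the promoter table within 1 kb. The fixed list of 65 muscle contraction and differentiation genes had 0 at or around a member, and 1.05% of all protein-coding genes had one. These genes therefore support no statement on muscle genes as a group. Utrn, which encodes the dystrophin homologue utrophin, held 2, one inside (5.68, 7.30 and 5.30) and one at a boundary (6.43, 6.33 and 4.70). A member inside Nrap, a myofibril assembly protein, had 6.66, 7.27 and 4.85, and one inside Popdc3, of the Popeye family, had 5.99, 8.97 and 4.86. Bbip1 and Shoc2, whose starts lie close together, also had 2 members, with folds of 6.31, 6.67 and 7.07 at one and 4.68, 4.19 and 4.98 at the other.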
